A study of Mus musculus with 6 samples.

Results

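The genes described here encode the pumps that carry bile constituents out of the hepatocyte. They are 10 genes of the 23284 in the count files, taken as a list of names, with no measured value in the rule. In the list, 8 genes (Abcb11, Abcb4, Abcg5, Abcg8, Atp8b1, Abcc2, Abcg2 and Abcb1a) act at the canalicular membrane, which faces bile, and 2 (Abcc3 and Abcc4) at the basolateral membrane, which faces blood. All 10 passed the filter on low counts. Liver RNA came from 3 FXR-WT and 3 Y67F-FXR mice. Every mouse was a male FXR-floxed mouse that was injected at 8 weeks of age with AAV8 carrying Cre under the TBG promoter, which is active in hepatocytes, so the floxed mouse FXR was removed from hepatocytes in both groups. Together with Cre, the mice received AAV8-TBG expressing FXR, either the wild type (FXR-WT) or the mutant in which tyrosine 67 is changed to phenylalanine (Y67F-FXR). After 4 weeks, all mice were fed chow with 0.5% cholic acid (CA) for 6 h before the livers were taken. Hepatic cells other than hepatocytes kept their own FXR gene, and the livers of untreated mice or of mice without an FXR vector were not analysed here.

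Bile is made at the canaliculus, where ABC transporters use ATP to move bile salts, phosphatidylcholine, cholesterol and organic conjugates out of the hepatocyte against steep gradients. Bile salts leave through the bile salt export pump (Abcb11), phosphatidylcholine through Abcb4 and cholesterol through the paired subunits Abcg5 and Abcg8, and the secreted lipids form mixed micelles that shield the duct from bile salts. When bile acids build up, hepatocytes can also send conjugates back to blood through basolateral pumps of the Abcc family. FXR is the nuclear receptor that senses bile acids, and Abcb11 is among its best known direct target genes. The comparison asks how these genes differed between livers with wild-type FXR and livers with the mutant that cannot be phosphorylated at this tyrosine.

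Library totals ranged from 19551113 to 22053320 reads, and the 10 genes took from 0.118% to 0.198% of the reads of a library. Nr1h4, the gene for FXR, had 186 ± 30.2 CPM in FXR-WT and 175 ± 9.84 CPM in Y67F-FXR livers (SD, n = 3). CPM are reads of a gene per 1000000 counted reads, with library totals scaled by TMM factors. Reads on Nr1h4 can come from the mouse gene or from the transgene. The methods define the flag-tagged FXR used elsewhere in the work as human and do not describe the insert of the AAV vector separately. Nr0b2, the FXR target gene that encodes SHP, had from 59.5 to 81.9 CPM in FXR-WT livers and 6.42, 25.9 and 7.59 CPM in Y67F-FXR replicates 1 to 3. Its log2 fold change was -2.37 and missed the threshold (adjusted p = 0.0862 in the edgeR quasi-likelihood fit, adjusted by Benjamini-Hochberg), and without Y67F-FXR replicate 2 it was -3.30 and passed (adjusted p = 0.00265 by the same test). It also passed in 5 of 9 alternative fits, with DESeq2, the likelihood ratio test, the length offsets with and without a replicate block, and no filter, at log2 fold changes from -2.62 to -2.35. Libraries of the groups also deviated together across genes, FXR-WT replicate 1 with Y67F-FXR replicate 2 (Pearson's r = 0.537 over 12453 genes, which are not independent replicates) and FXR-WT replicate 3 with Y67F-FXR replicate 1 (r = 0.578). Genes as long as the pumps (2263 to 6440 bp) were shifted with them, by a median of -0.05 and -0.09 in the first of these pairs and of 0.06 and 0.07 in the second (log2 CPM from the gene's mean over 6 libraries). Nothing states that the mice were housed or handled in batches. P-values set the difference between the groups against the spread of these 6 livers within their groups.

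Of the 10 pump genes, Abcg5 and Abcg8 fell in Y67F-FXR livers and none rose. Calls required a fold change over 1.5 together with an adjusted p under 0.05 in edgeR's quasi-likelihood test. By this rule 121 of 12453 tested genes were called (0.972%), of which 53 were lower (0.426%) and 68 were higher (0.546%), and when libraries were scaled by their totals alone the split was 68 lower and 52 higher. At an unadjusted p under 0.05, 5 of the pump genes were lower, against 6.67% of all tested genes, and 2 were higher, against 6.75%. In whole liver, fewer cells of a type and less RNA per cell cannot be told apart. The livers of the groups did not overlap for 7 of the 10 genes. Of these, 5 (Abcg5, Abcg8, Abcb11, Atp8b1 and Abcb4) had every Y67F-FXR liver below every FXR-WT liver, as had 10.5% of all tested genes, and 2 (Abcc3 and Abcg2) had every Y67F-FXR liver above, as had 10.2%. The median log2 fold change was -0.23 over the 10 genes, -0.52 over the 8 canalicular genes and 0.28 over the 2 basolateral genes, beside 0.01 over all tested genes. The median over the 10 genes was -0.41 without FXR-WT replicate 1 and -0.40 without Y67F-FXR replicate 1. DESeq2 called 4 of the 10 genes lower and 1 higher, and the likelihood ratio test of edgeR 4 lower and 0 higher, while of all tested genes they called 215 and 226 lower.

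**Figure D1:**
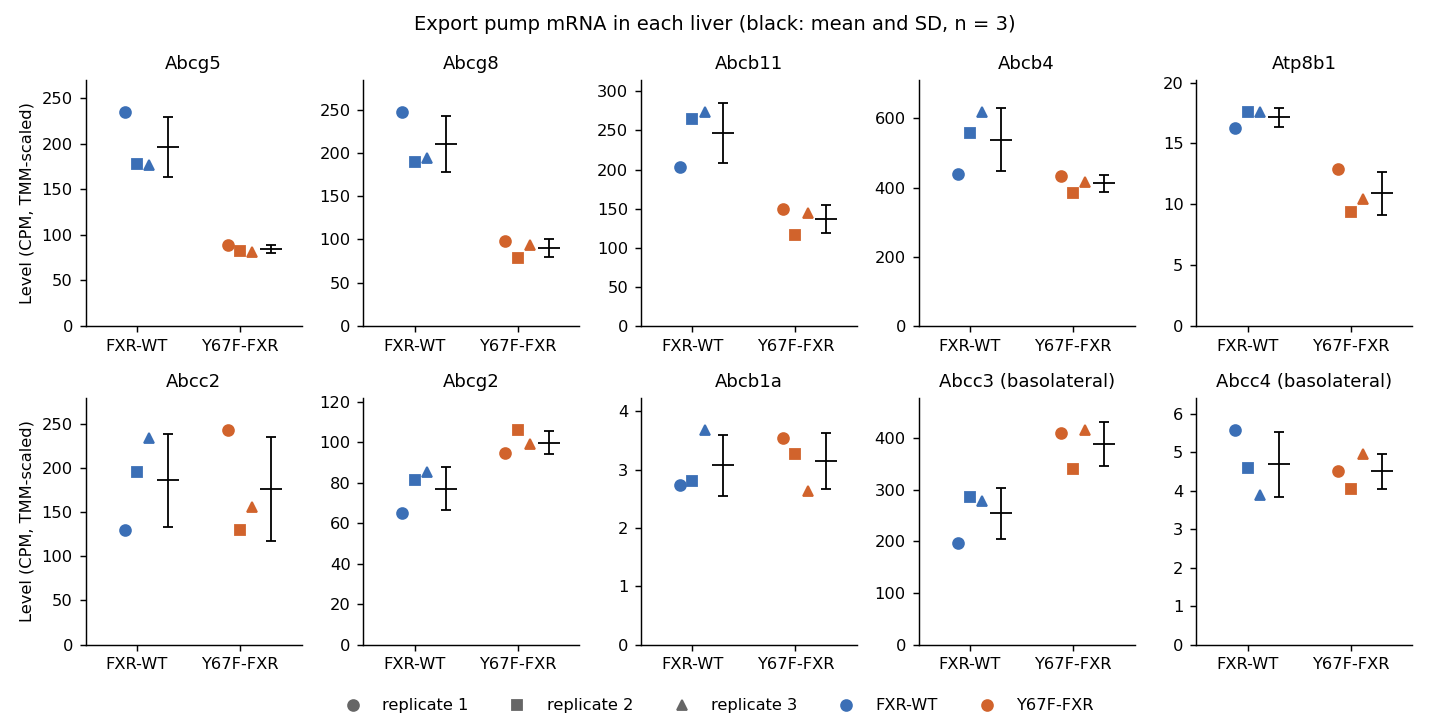
Level of each of the 10 pump genes (y axis, CPM scaled by TMM factors, from 0) in each of 3 FXR-WT (blue) and 3 Y67F-FXR (orange) livers, with marker shapes for the replicate number and black lines for the mean and SD. The groups are apart for Abcg5, Abcg8, Abcb11, Abcb4 and Atp8b1 (Y67F-FXR lower) and for Abcg2 and Abcc3 (Y67F-FXR higher), and overlap for Abcc2, Abcb1a and Abcc4.

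**Figure D2:**
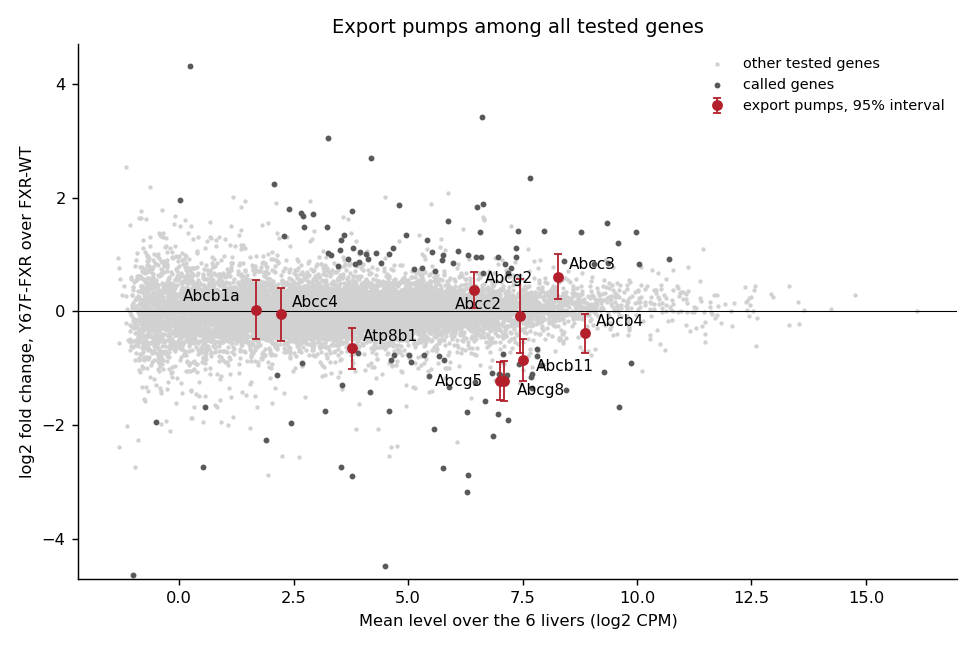
Log2 fold change of Y67F-FXR over FXR-WT (y axis) against the mean log2 CPM of the 6 livers (x axis) for 12453 tested genes, with the 121 called genes in dark grey and the 10 pump genes in red with 95% intervals. Abcg5 and Abcg8 lie together at -1.22, and the interval crosses 0 for Abcc2, Abcc4 and Abcb1a.

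The sterol pump had the largest fitted change of the list. Abcg5 and Abcg8 encode subunits that work only as a heterodimer and secrete cholesterol and plant sterols into bile. Abcg5 had 235, 178 and 177 CPM in FXR-WT replicates 1 to 3 and 89.1, 82.0 and 81.2 CPM in Y67F-FXR replicates 1 to 3. Abcg8 had 247, 189 and 194 CPM in the FXR-WT livers and 98.0, 78.8 and 94.0 CPM in the Y67F-FXR livers. For both genes FXR-WT replicate 1 was the highest liver, and the lowest FXR-WT liver stood well above the highest Y67F-FXR liver. Abcg5 fell by 1.22 on the log2 scale (standard error 0.146, 95% interval -1.56 to -0.89, adjusted p = 0.0175 in the edgeR quasi-likelihood fit, adjusted by Benjamini-Hochberg). Abcg8 also fell by 1.22 on the log2 scale (standard error 0.153, 95% interval -1.57 to -0.86, adjusted p = 0.0176 by the same edgeR test). These are changes of 2.33-fold for each gene, and they ranked 21 and 33 by p among all tested genes.

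Per kilobase of gene model, Abcg5 had 1.53, 1.52 and 1.47 times the reads of Abcg8 in FXR-WT livers and 1.47, 1.68 and 1.397 times in Y67F-FXR livers. The mean log2 ratio was 0.59 ± 0.03 and 0.60 ± 0.14 (SD, n = 3), a difference of 0.00213 (p = 1 by an exact two-sided permutation test, adjusted p = 1 over 3 ratios). With 3 livers a group this test cannot go below 0.1, and with any 1 liver left out the difference ran from -0.0752 to 0.0588. Across the 6 livers, each gene was also the closest of 11513 genes to the other, by the mean absolute difference of log2 CPM centred on each gene's mean (0.062), a comparison chosen after their values were seen. The calls were lost when either of 2 livers was left out. They were also lost with the replicate number as a block (adjusted p = 0.0887 for both by edgeR's quasi-likelihood test). With FXR-WT replicate 3 left out, the adjusted p rose to 0.0614 for Abcg5 and 0.0716 for Abcg8 by edgeR's quasi-likelihood test, and without Y67F-FXR replicate 3 it was 0.0817 for both, while both calls held without any of the other 4 livers.

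The genes lie head to head on chromosome 17. In the mm9 gene models of the count files Abcg5 (85057574 to 85082263, minus strand, 13 exons) and Abcg8 (85082471 to 85099673, plus strand, 13 exons) are 207 bases apart and share no exon bases. In GRCm38.p6 the RefSeq start of Abcg5 is at 84683011, and RefSeq gives Abcg8 starts at 84683121 and at 84676302, of which the first is the nearer to that of Abcg5. The bases between the nearer pair are shown on the plus strand because they lie upstream of both of the genes that fell. They were searched on both strands for the FXR inverted repeat IR-1 (AGGTCANTGACCT, up to 2 mismatches), the LXR direct repeat DR-4 (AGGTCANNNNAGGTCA, up to 2 mismatches) and the NRF2 element (TGACNNNGC, no mismatch), with no match, so none is in capitals.
Abcg5-Abcg8 intergenic, chr17:84683012-84683120, plus strand, GRCm38.p6: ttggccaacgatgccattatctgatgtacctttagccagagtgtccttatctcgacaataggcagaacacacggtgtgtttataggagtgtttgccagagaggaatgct

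Abcb11, the bile salt export pump, was lower in every Y67F-FXR liver but did not pass the test. It had 203, 265 and 274 CPM in FXR-WT replicates 1 to 3 and 149, 117 and 145 CPM in Y67F-FXR replicates 1 to 3. FXR-WT replicate 1 was the lowest liver of its group and Y67F-FXR replicate 2 the lowest of all. The log2 fold change was -0.85 (standard error 0.161, 95% interval -1.22 to -0.48, adjusted p = 0.0612 in the edgeR quasi-likelihood fit, adjusted by Benjamini-Hochberg), a level 1.80-fold lower. The gene passed without FXR-WT replicate 1 (log2 fold change -0.98, adjusted p = 0.0460 by the same edgeR test), with loess offsets for gene length (adjusted p = 0.00863), with DESeq2 and with 3 other of the 9 alternative fits, over which its log2 fold change stayed between -0.92 and -0.85. Abcb11 lies on chromosome 2 of mm9 (69076339 to 69180673, minus strand, 28 exons).

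The 250 bases before the RefSeq start of Abcb11 are shown because an FXR motif was found in them. Capitals mark 2 matches to IR-1. One begins 94 bases before the start and differs from the motif at 2 positions, and the other begins 63 bases before the start and differs at 1. The search covered each RefSeq promoter window from 250 bases before to 50 after a start, and of 32851 such windows 374 (1.14%) held such a match. Promoter windows were at hand for 8 of the 10 genes (12 windows, none for Abcc3 and Atp8b1), and Abcb11 had the only window of these 12 with an IR-1 match. The NRF2 element was in 4 of the 12 windows, of Abcc2, Abcc4 and Abcb1a, and in 12.4% of all windows, and DR-4 was in none of the 12 and in 3.02% of all. A match in the letters is no measurement of binding.
Abcb11 upstream, chr2:69342617-69342866, minus strand, GRCm38.p6: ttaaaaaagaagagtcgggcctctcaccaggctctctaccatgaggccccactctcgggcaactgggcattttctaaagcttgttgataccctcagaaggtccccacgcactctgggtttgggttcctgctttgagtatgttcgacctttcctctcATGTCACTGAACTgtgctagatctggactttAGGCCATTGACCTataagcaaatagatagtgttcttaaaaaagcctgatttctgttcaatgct

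The genes whose pattern over the 6 livers was most like that of Abcb11 were Ubxn4, Camkk2, Homer2, Pid1 and Hist2h2be, with a mean absolute difference of centred log2 CPM from 0.0522 to 0.0858 over 11513 genes that averaged 1 CPM or more. The measure includes the difference between the groups, so their log2 fold changes, between -0.95 and -0.73, lay near that of Abcb11 by choice. Of the other pumps Atp8b1 was nearest to Abcb11 (0.142, rank 57), while Abcg8 and Abcb4 were at ranks 344 and 365. Abcc3 (rank 11030) and Abcg2 (rank 10116) were among the least like it.

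Abcb4 encodes the floppase that moves phosphatidylcholine to the outer leaflet of the canalicular membrane, and it was the most abundant pump per length in both groups. It had 439, 558 and 619 CPM in the FXR-WT livers and 433, 386 and 417 CPM in the Y67F-FXR livers. The groups were apart by only a narrow margin, between FXR-WT replicate 1 and Y67F-FXR replicate 1. The log2 fold change was -0.39 (standard error 0.151, 95% interval -0.74 to -0.04) and did not pass (adjusted p = 0.320 in the edgeR quasi-likelihood fit, adjusted by Benjamini-Hochberg). It passed in none of 9 alternative fits. Abcb4 lies on chromosome 5 of mm9 (8893721 to 8959226, plus strand, 28 exons).

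The ratio of the bile salt pump to the phospholipid floppase was lower in every Y67F-FXR liver, in a design too small for the test to pass. Abcb11 had 0.385, 0.395 and 0.368 times the reads of Abcb4 per kilobase in the FXR-WT livers and 0.287, 0.252 and 0.289 times in the Y67F-FXR livers. Scaling between libraries cancels in this ratio, and FXR-WT replicate 1, low for both genes, lay between the other FXR-WT livers in it. The mean log2 ratio was -1.39 ± 0.05 in FXR-WT and -1.86 ± 0.11 in Y67F-FXR livers (SD, n = 3), a difference of -0.47. The groups did not overlap, and the exact two-sided permutation test gave p = 0.1, the smallest that 3 livers against 3 allow (adjusted p = 0.15 over 3 ratios). With any 1 liver left out the difference stayed between -0.51 and -0.41.

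Atp8b1 encodes FIC1, a P4-ATPase that flips phospholipids to the inner leaflet of the canalicular membrane and keeps it resistant to bile salts. It was expressed below 7 of the other pump genes and above Abcc4 and Abcb1a, at 16.2, 17.6 and 17.6 CPM in the FXR-WT livers and 12.9, 9.38 and 10.5 CPM in the Y67F-FXR livers. The FXR-WT livers were close together and all above the Y67F-FXR livers, of which replicate 2 was lowest. The log2 fold change was -0.65 (standard error 0.153, 95% interval -1.005 to -0.297) and did not pass (adjusted p = 0.110 in the edgeR quasi-likelihood fit, adjusted by Benjamini-Hochberg). It passed in 3 of 9 alternative fits, which were DESeq2, the likelihood ratio test and the loess offsets for gene length. Tmem30a, which encodes the CDC50A subunit that Atp8b1 needs to leave the endoplasmic reticulum, had overlapping groups and a log2 fold change of 0.09. Of the P4-ATPases other than Atp8b1 and their subunits, none of 12 tested genes was called by edgeR's quasi-likelihood test, DESeq2 or the likelihood ratio test, 1 was lower and 1 higher at an unadjusted p under 0.05, and the median log2 fold change was 0.11. The nearest to a call was Atp9a, at 89.2 ± 6.52 CPM in FXR-WT and 132 ± 11.4 CPM in Y67F-FXR livers (SD, n = 3, adjusted p = 0.0930 by edgeR's quasi-likelihood test), followed by Atp8b5 (log2 fold change -1.40) and Atp10d (0.56). Atp9a was 1.48-fold higher, under the minimum of 1.5. Its adjusted p was 0.0032 with DESeq2 and 0.0188 with the likelihood ratio test. Without FXR-WT replicate 1 the value of Atp8b5 was -0.92, and without Y67F-FXR replicate 1 that of Atp10d was 0.31.

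None of the 3 canalicular pumps for conjugates and drugs passed the test. Abcc2 (MRP2), which exports bilirubin glucuronides and glutathione conjugates, had 129, 195 and 233 CPM in FXR-WT and 243, 130 and 155 CPM in Y67F-FXR livers. Its lowest values were in FXR-WT replicate 1 and Y67F-FXR replicate 2, and its highest in FXR-WT replicate 3 and Y67F-FXR replicate 1, the same pairs of livers that deviated together across all genes. The part of these shared deviations in the values of Abcc2 was not tested. The log2 fold change was -0.08 with a 95% interval from -0.73 to 0.57, so changes within that range in either direction are compatible with these livers. Its sign changed when single livers were left out. Abcg2 (BCRP), which exports sulfated conjugates and many drugs, had 64.9, 81.2 and 85.2 CPM in FXR-WT and 94.5, 106 and 98.9 CPM in Y67F-FXR livers. All Y67F-FXR livers were above all FXR-WT livers, and the log2 fold change was 0.37 (standard error 0.137, 95% interval 0.05 to 0.69), which did not pass (adjusted p = 0.285 in the edgeR quasi-likelihood fit, adjusted by Benjamini-Hochberg). Abcb1a, a P-glycoprotein gene, was near the bottom of the list at 2.74, 2.81 and 3.67 CPM in FXR-WT and 3.55, 3.27 and 2.63 CPM in Y67F-FXR livers, with overlapping groups and a log2 fold change of 0.03 (95% interval -0.48 to 0.54). Its sign turned with library totals (-0.04) and with 4 of the livers left out. Of its 4898 windows of 100 bases, 417 (8.51%) also occur in transcripts of other genes, among them Abcb1b and Abcb4. Reads from such stretches may be missing from the counts. How many were lost was not measured, so its level is uncertain.

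At the basolateral membrane the abundant pump was higher in every Y67F-FXR liver but did not pass. Abcc3 (MRP3), which returns glucuronides and some bile salts to blood, had 198, 287 and 278 CPM in FXR-WT replicates 1 to 3 and 410, 340 and 415 CPM in Y67F-FXR replicates 1 to 3. FXR-WT replicate 1 was the lowest liver, and the lowest Y67F-FXR liver was above the highest FXR-WT liver. The log2 fold change was 0.61 (standard error 0.172, 95% interval 0.217 to 1.009), or 1.53-fold higher (adjusted p = 0.164 in the edgeR quasi-likelihood fit, adjusted by Benjamini-Hochberg). Of 9 alternative fits it passed only with DESeq2 (adjusted p = 0.0340 with Benjamini-Hochberg adjustment). Abcc3 lies on chromosome 11 of mm9 (94204609 to 94254290, minus strand, 31 exons). Abcc4 (MRP4), which exports bile salts together with glutathione, had 5.57, 4.61 and 3.89 CPM in FXR-WT and 4.52, 4.04 and 4.96 CPM in Y67F-FXR livers. These groups overlapped, with a log2 fold change of -0.05 (95% interval -0.52 to 0.41) whose sign turned when FXR-WT replicate 1 or Y67F-FXR replicate 2 was left out.

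The Abcc pumps for conjugates were also compared as a ratio in each liver. Per kilobase, Abcc3 had 1.65, 1.58 and 1.28 times the reads of Abcc2 in FXR-WT replicates 1 to 3 and 1.82, 2.83 and 2.88 times in Y67F-FXR replicates 1 to 3. Y67F-FXR replicate 1, the liver with the most Abcc2, lay close to the FXR-WT livers. The mean log2 ratio was 0.58 ± 0.19 in FXR-WT and 1.30 ± 0.37 in Y67F-FXR livers (SD, n = 3), a difference of 0.72 (p = 0.1 by the exact two-sided permutation test, adjusted p = 0.15 over 3 ratios). With any 1 liver left out the difference stayed between 0.60 and 0.93, with p = 0.2 by the same exact test when an FXR-WT liver was left out.

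**Figure D3:**
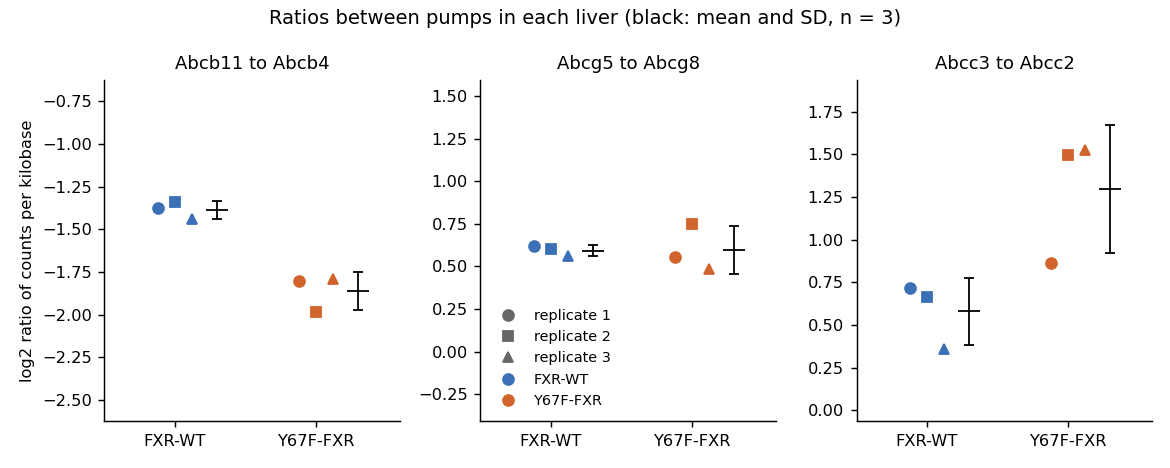
Log2 ratio of counts per kilobase (y axes, each spanning the same number of log2 units) of Abcb11 to Abcb4, Abcg5 to Abcg8 and Abcc3 to Abcc2 in each FXR-WT (blue) and Y67F-FXR (orange) liver, with the mean and SD in black. The Abcb11 to Abcb4 ratio is lower in all 3 Y67F-FXR livers, the Abcg5 to Abcg8 ratio overlaps, and the Abcc3 to Abcc2 ratio is higher in all 3 Y67F-FXR livers.

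**Figure D4:**
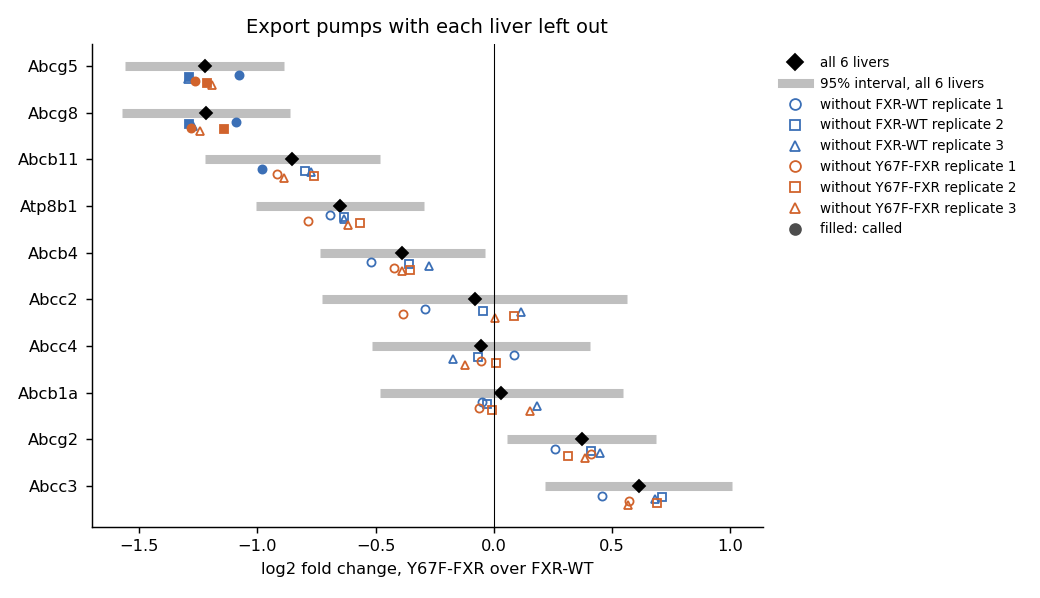
Log2 fold change of Y67F-FXR over FXR-WT (x axis) of each pump gene with all 6 livers (black diamonds, grey bars for 95% intervals) and with each liver left out (coloured symbols, filled where the gene was called). Abcg5 and Abcg8 were called in 4 of 6 such fits and Abcb11 in 1, and the sign of Abcc2, Abcc4 and Abcb1a depended on the liver left out.

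Levels of different genes were compared as RPKM, the CPM divided by the length of the gene model in kilobases. In FXR-WT livers the order was Abcb4 (132 ± 22.4 RPKM, SD, n = 3), Abcg5 (86.8 ± 14.7), Abcg8 (57.4 ± 8.85), Abcc3 (50.8 ± 9.80), Abcb11 (50.5 ± 7.85), Abcc2 (34.5 ± 9.77), Abcg2 (30.9 ± 4.32), Atp8b1 (2.66 ± 0.122), Abcc4 (0.795 ± 0.144) and Abcb1a (0.618 ± 0.104). The livers of neighbours in this order overlapped from Abcg8 through Abcg2 and between Abcc4 and Abcb1a, and those of the other neighbours did not. In Y67F-FXR livers Abcb4 stayed first (101 ± 5.91 RPKM, SD, n = 3) and Abcc3 was second (77.7 ± 8.36). Abcg2 (40.0 ± 2.30), Abcg5 (37.2 ± 1.91), Abcc2 (32.6 ± 10.98), Abcb11 (28.0 ± 3.58) and Abcg8 (24.7 ± 2.78) followed, each overlapping the next. Atp8b1 (1.69 ± 0.278), Abcc4 (0.765 ± 0.0787) and Abcb1a (0.633 ± 0.0952) stayed last. Of the summed RPKM of the 10 genes, Abcc3 made up 11.4% in FXR-WT and 22.5% in Y67F-FXR livers, Abcg5 19.4% and 10.8%, and Abcb4 29.6% and 29.4%.

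**Figure D5:**
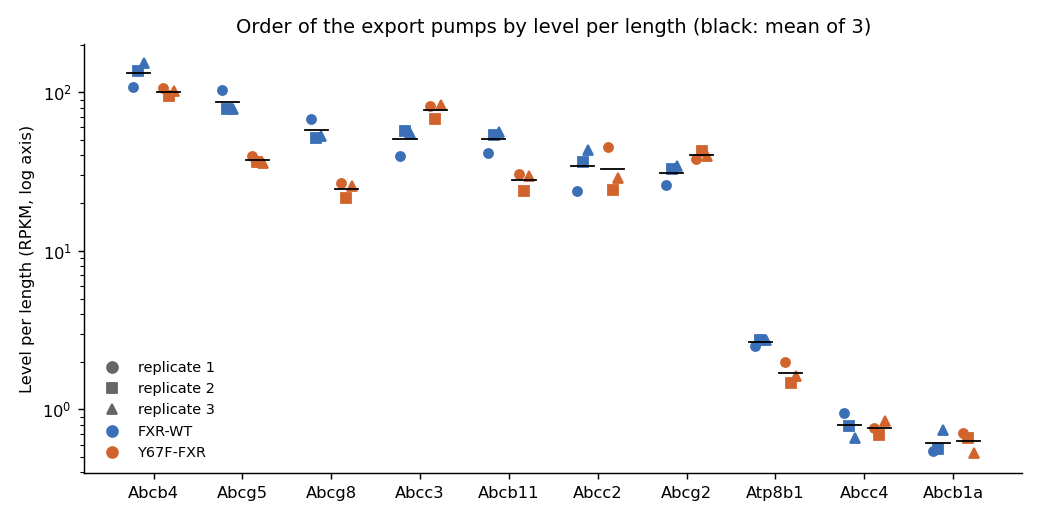
Level per length (y axis, RPKM on a log axis) of the 10 pump genes, ordered by their mean in FXR-WT livers, in each FXR-WT (blue) and Y67F-FXR (orange) liver, with black lines for the mean of 3. Abcb4 is highest in both groups, Abcc3 moves from 50.8 to 77.7 RPKM and Abcg5 from 86.8 to 37.2 RPKM, and Atp8b1, Abcc4 and Abcb1a lie below the rest.

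Other ABC transporters and other routes out of the hepatocyte were set beside these pumps. Of 31 further ABC transporters tested, none was called by edgeR's quasi-likelihood test, DESeq2 and the likelihood ratio test each called 1 lower, 4 were lower and 4 higher at an unadjusted p under 0.05, and the median log2 fold change was 0.06. Nearest to a call were Abcg1, which loads cholesterol onto HDL (13.2 ± 1.82 CPM in FXR-WT and 7.16 ± 1.24 CPM in Y67F-FXR livers, SD, n = 3, adjusted p = 0.0768 by the same edgeR test and 0.0487 with library totals), Abcb10 (log2 fold change -0.43) and Abcc10 (0.46). Of 15 tested genes for other exporters and partners of export, Scarb1 fell and no other was called by edgeR's quasi-likelihood test. DESeq2 and the likelihood ratio test each called 2 lower, as did library totals in place of the factors. At an unadjusted p under 0.05, 3 were lower and 1 was higher, and the median log2 fold change was -0.08. This list shares genes with that of the ABC transporters. Abcg1 is in both, and it was the gene called beside Scarb1 in those fits. Scarb1, the receptor that takes up cholesterol from HDL, had 295, 285 and 266 CPM in FXR-WT and 168, 185 and 180 CPM in Y67F-FXR livers, 1.58-fold lower (log2 difference -0.66, standard error 0.112, adjusted p = 0.0429 in the edgeR quasi-likelihood fit, adjusted by Benjamini-Hochberg). The call was lost with each of the 6 livers left out, at adjusted p from 0.0755 to 0.221 by the same edgeR test. The files list Osta, a subunit of the basolateral bile salt carrier, at 0 reads in all 6 libraries. No level or limit is read from this, since reads on several places or genes were not counted and the abundant haemoglobin genes Hba-a1 and Hbb-b1 are listed at 0 too. Its partner Ostb, named here after its values were seen, had 1.37, 0.485 and 0.475 CPM in FXR-WT and 0.0972, 0.382 and 0.0955 CPM in Y67F-FXR livers, and did not pass (adjusted p = 0.251 by edgeR's quasi-likelihood test).

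Pumps also depend on scaffolds, motors and junctions of the canalicular membrane. Of 22 such genes tested none was called by edgeR's quasi-likelihood test, while the same test with loess offsets for gene length, DESeq2 and the likelihood ratio test each called 2 lower, 5 were lower and 2 higher at an unadjusted p under 0.05, and the median log2 fold change was -0.21. The nearest to a call encode claudins of the tight junction and a scaffold that holds Abcc2 at the membrane. Cldn2 had 92.6, 138 and 122 CPM in FXR-WT and 70.4, 60.8 and 74.8 CPM in Y67F-FXR livers (adjusted p = 0.0959 by edgeR's quasi-likelihood test, 0.0469 without FXR-WT replicate 1 and 0.0367 with the length offsets). Cldn1 had 51.6, 33.0 and 42.9 CPM in FXR-WT and 26.7, 15.0 and 19.6 CPM in Y67F-FXR livers (adjusted p = 0.10005 by the same test, 0.0487 with the length offsets). Slc9a3r1, which encodes the scaffold NHERF1, differed by -0.49 on the log2 scale (standard error 0.117, adjusted p = 0.113 by the same test).

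Markers of the cells that whole liver can hold were measured beside the pumps. None of the 7 hepatocyte markers found was called, with a median log2 fold change of 0.01 and 1 (Fgb, -0.53) at an unadjusted p under 0.05. Their summed level was 101310 to 114685 CPM in FXR-WT and 97748 to 118510 CPM in Y67F-FXR livers. Cholangiocyte markers summed to 69.2 to 97.9 CPM in FXR-WT and 75.1 to 80.0 CPM in Y67F-FXR livers, with Cftr at or below 0.216 CPM in every library and Slc10a2 lower (-1.09) at an unadjusted p under 0.05. The summed markers were 228 to 261 against 243 to 256 CPM for sinusoidal endothelium (Lyve1 at -0.89), 112 to 147 against 85.6 to 173 CPM for Kupffer cells and leukocytes (S100a8 at -2.73) and 327 to 407 against 317 to 370 CPM for stellate cells (Lrat at -1.15, Acta2 at -1.95 and Col1a1 at -0.77). These are the members of each list at an unadjusted p under 0.05, and none was called by edgeR's quasi-likelihood test with the main settings. DESeq2 and the likelihood ratio test each called 1 lower in the cholangiocyte, leukocyte and stellate lists. The quasi-likelihood test called 1 lower in the leukocyte list with length offsets, with library totals and with no filter. In the stellate list it called 1 lower with length offsets, with and without a replicate block, with the size factors of DESeq2 and with no filter. The erythrocyte markers Hba-a1 and Hbb-b1 were listed at 0 in all libraries, Slc4a1 was at or below 0.293 CPM, and Alas2 had a log2 fold change of 0.16. Of the 8 stellate markers 6 had a fitted value below 0, with a median log2 fold change of -0.22, and the list's summed level is mostly that of Ecm1 and Dcn (log2 fold changes 0.02 and -0.10). The value for Acta2 rests on FXR-WT replicate 1, which had 9.88 CPM, while the other FXR-WT livers had 1.6 and 1.56 CPM and the Y67F-FXR livers 0.826, 1.58 and 0.955 CPM. The groups overlapped in the summed level of each of these lists, and the part of other cells in the pump values was not tested.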

How the data were processed

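RNA-seq of 6 mouse livers was used, and groups were taken from the sample titles. The authors deposited raw counts per gene. They aligned paired-end reads with STAR (2.5.3a in the submitters' processing notes) and counted them on UCSC mm9 gene models with featureCounts 1.4.6-p4, without strand, each read of a pair singly. Reads on several places or genes were left out. Their comparison table (fold changes, mean log2 CPM, p-values, false discovery rates) was not used.

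The counts were tested with edgeR 4.0.16 in R 4.3.3 (filterByExpr, TMM factors, glmQLFit, glmQLFTest, Benjamini-Hochberg adjustment over 12453 genes) with limma 3.58.1, and figures were drawn in matplotlib 3.10.9 (Python 3.11.15). Standard errors come from the F statistic and intervals are 95%. Log2 CPM used a prior count of 2. DESeq2 1.42.0, the likelihood ratio test, other scalings and filters, a replicate block, loess length offsets (span 0.3) and leaving out each liver were the alternatives. Fits were tested on simulated data. Ratios were tested by exact two-sided permutation.

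The members and gene lists were chosen with earlier results of these data known. Named genes are the 10 members, Nr1h4, Nr0b2, the called genes of each list (up to 5) or else the 3 nearest to a call, the 5 most like Abcb11, and markers near 0 or with an unadjusted p under 0.05. Osta, Ostb, Tmem30a, Ecm1, Dcn and Alas2 were named outside this rule, after their values were seen. The hepatocyte marker Tf was not matched. Sequences are from RefSeq in GRCm38.p6, read by their own coordinates, while mm9 positions are those of the count files.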

Additional observations from a re-analysis of the deposited data

How the results depend on the processing

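With 3 livers a group, the spread between mice limits precision, and for genes with few reads, such as Atp8b1, Abcb1a, Abcc4, Ostb, Atp8b5 and S100a8, depth limits it too. Abcg5 and Abcg8 passed in 8 of 9 alternative fits, Abcb11 in 5, Atp8b1 in 3, Abcc3 in 1, and Abcb4, Abcc2, Abcg2, Abcb1a and Abcc4 in none. Causes of the changes given here were not tested. Against 2 pump genes lower and 0 higher, 53 genes of all tested lower and 68 higher, DESeq2 gave 4, 1, 215 and 214. The likelihood ratio test gave 4 lower pump genes, 226 lower and 221 higher genes, and length offsets gave 4, 124 and 123. At an unadjusted p under 0.05 with the fold minimum of 1.5 kept, these were 4 pump genes lower and 1 higher, 401 lower and 382 higher genes. Without a filter beyond 1 count, 81 genes were lower and 86 higher.

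Leaving out 1 liver gave 0 to 3 lower and 0 higher pump genes, 7 to 33 lower and 2 to 35 higher genes, and a median of the pump genes from -0.41 to -0.18. The difference in the Abcg5 to Abcg8 ratio then ran from -0.0752 (without Y67F-FXR replicate 2) to 0.0588, the log2 fold change of Abcb1a from -0.0646 to 0.181, of Abcc2 from -0.383 to 0.117 and of Abcc4 from -0.174 to 0.0838, each with both signs. With library totals that of Abcb1a was -0.0394.

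No label states whether the replicate numbers pair the mice. Deviations of same-numbered libraries from their group means correlated at -0.517, -0.080 and 0.121 over 12453 genes, which does not settle it. With the replicate number as a block, 0 pump genes were lower, 6 genes were lower and 2 higher, Abcg5 and Abcg8 had log2 fold changes of -1.21 (adjusted p = 0.0887 by edgeR's quasi-likelihood test), and the ratio differences could give no p below 0.25.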
